A study of Mus musculus with 12 samples.

Results

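The proteasome subunit genes were described in mouse haematopoietic stem and progenitor cells (HSPCs) from 3 mutant genotype groups and wild type (WT) mice. Members were taken by name, as every gene symbol that starts with Psma, Psmb, Psmc, Psmd, Psme, Psmf or Psmg followed by a number. This gave 50 of the 24016 genes in the deposited tables, from 56 transcript rows. For the 6 symbols with several rows the row with the highest mean was used. By role, 7 members are alpha subunits and 7 are standard beta subunits of the 20S core, 3 are immunoproteasome subunits, 17 belong to the 19S regulatory cap (6 base ATPases, 3 other base subunits and 8 lid subunits), 4 are activators, 1 is an inhibitor and 7 are assembly factors (4 for the core and 3 for the base). The other 4 (Psma8, Psmb11, Psme2b and Psmc3ip) are listed apart. Of the 50 members, 49 had an adjusted p in every comparison, and Psmb11 had none.

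The 12 RNA-seq libraries fall into the groups Double, Npm1, Smc3 and WT, with 3 libraries each, all from C57BL/6 mice. Every mouse, WT included, received 7 intraperitoneal doses of pIpC, a synthetic double-stranded RNA that induces interferon, starting at an age of 4 to 6 weeks. HSPCs were collected 4 to 6 weeks after treatment by lysing red cells and depleting lineage-positive cells, and RNA came from 1000000 cells. The labels give the genotype by gene name alone, with no allele, Cre driver or sex, and nothing in them ties each of the 3 libraries to a mouse of its own, so the spread between libraries may be partly technical. Per the series title, the study concerns leukaemia with mutations in NPM1 and cohesin, and Smc3 encodes a cohesin subunit.

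The proteasome is the protease complex that degrades proteins tagged with ubiquitin. Its 20S core is a barrel of alpha rings around beta rings, and the beta subunits beta1 (Psmb6), beta2 (Psmb7) and beta5 (Psmb5) hold the active sites. In blood cells, and after interferon gamma, these are exchanged for Psmb9, Psmb10 and Psmb8, which form the immunoproteasome and favour peptides that fit major histocompatibility complex class I molecules. The 19S cap binds ubiquitin chains, removes them and unfolds the substrate, and its base contains a ring of ATPases.

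Each comparison with WT rests on 1 of the authors' deposited tables, which holds a mean of normalized counts over the 6 libraries, a log2 fold change with its standard error (SE) and an adjusted p. The 3 tables share the WT libraries and hold no values per library. The SE is that of the authors' fitted fold change and is not the observed spread between libraries, which cannot be shown. Depth was estimated as a library's size factor (the divisor that normalizes its counts) times the summed mean normalized count of the table's genes. The estimates were 27.8 to 35.4 M reads (M, 1000000) in Double and 10.6 to 33.1 M in Npm1 libraries. In Smc3 libraries they were 19.8 to 51.6 M. In WT libraries they were 10.2 to 22.0 M, taken over the 3 tables, whose estimates for the same WT libraries differ slightly. Genes that mark HSPCs were well detected in the authors' deposited tables: Kit had a mean of 7661, 6073 and 8121 normalized counts and Myb one of 14980.1, 10984 and 14544 in the Double, Npm1 and Smc3 comparisons. In the authors' deposited tables, the Smc3 transcript differed from WT by -0.026 in Double, 0.14 in Npm1 and -0.019 in Smc3 on the log2 scale, and the Npm1 transcript by -0.061, 0.22 and -0.26, none with an adjusted p under 0.05. The labels name no deleted exon, so these values do not test the labels. The means of 4 Y-linked genes summed to 2280 normalized counts in the Double comparison and 2022 in the Smc3 comparison, but to 3.80 in the Npm1 comparison, so the Double and Smc3 groups included males and the Npm1 and WT groups did not. Sex therefore cannot be told apart from genotype in Double and Smc3 against WT or against Npm1 HSPCs, and Psmd10 is the only member on the X chromosome.

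Proteasome genes were among the abundant transcripts of these cells. The 46 members with a role had a median mean of 3042 normalized counts, against 733 for the 12283 genes with an adjusted p in all comparisons. Per kilobase of the annotated transcript, Psma7 was highest with 5118 normalized counts per kb, followed by Psmb4 with 4291, Psma1 with 3590 and Psma6 with 3498. The lowest standard subunits per kb were Psma3 with 606 and Psmd11 with 801. Of the immunoproteasome genes, Psmb8 reached 1536 normalized counts per kb, close to the 1516 of its standard counterpart Psmb5. Psmb10 had 929 normalized counts per kb against 2994 for Psmb7, and Psmb9 had 722 against 2966 for Psmb6. Levels per kb depend on the length of the 1 transcript kept for each gene and have no error here.

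A member was counted as having risen or fallen at an authors' adjusted p under 0.05 (DESeq2's Wald test, adjusted over all transcripts). In Smc3 HSPCs 14 of 49 members fell and 0 rose, in Npm1 HSPCs 4 fell and 2 rose, and in Double HSPCs 4 fell and 0 rose. Among all genes with an adjusted p, 6.6% fell and 7.94% rose in Smc3, 9% fell and 9.1% rose in Npm1, and 9.82% fell and 8.87% rose in Double HSPCs. Members are abundant, so the closer background is genes with a mean of at least 1000 normalized counts: there 11.9% fell and 4.94% rose in Smc3, 6.08% fell and 14.9% rose in Npm1, and 14.1% fell and 7.15% rose in Double HSPCs. Of members with such a mean, 13 of 43 fell in Smc3, 2 fell and 2 rose of 41 in Npm1, and 3 of 43 fell in Double HSPCs. The share of members that fell was therefore above the background in Smc3, and was near or below it in Npm1 and Double HSPCs. At an unadjusted p under 0.05 the number of members that differed was 27 in Smc3, 12 in Npm1 and 9 in Double HSPCs. The share of all genes at that unadjusted threshold is not given here, so these 3 counts have no background.

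**Figure D1:**
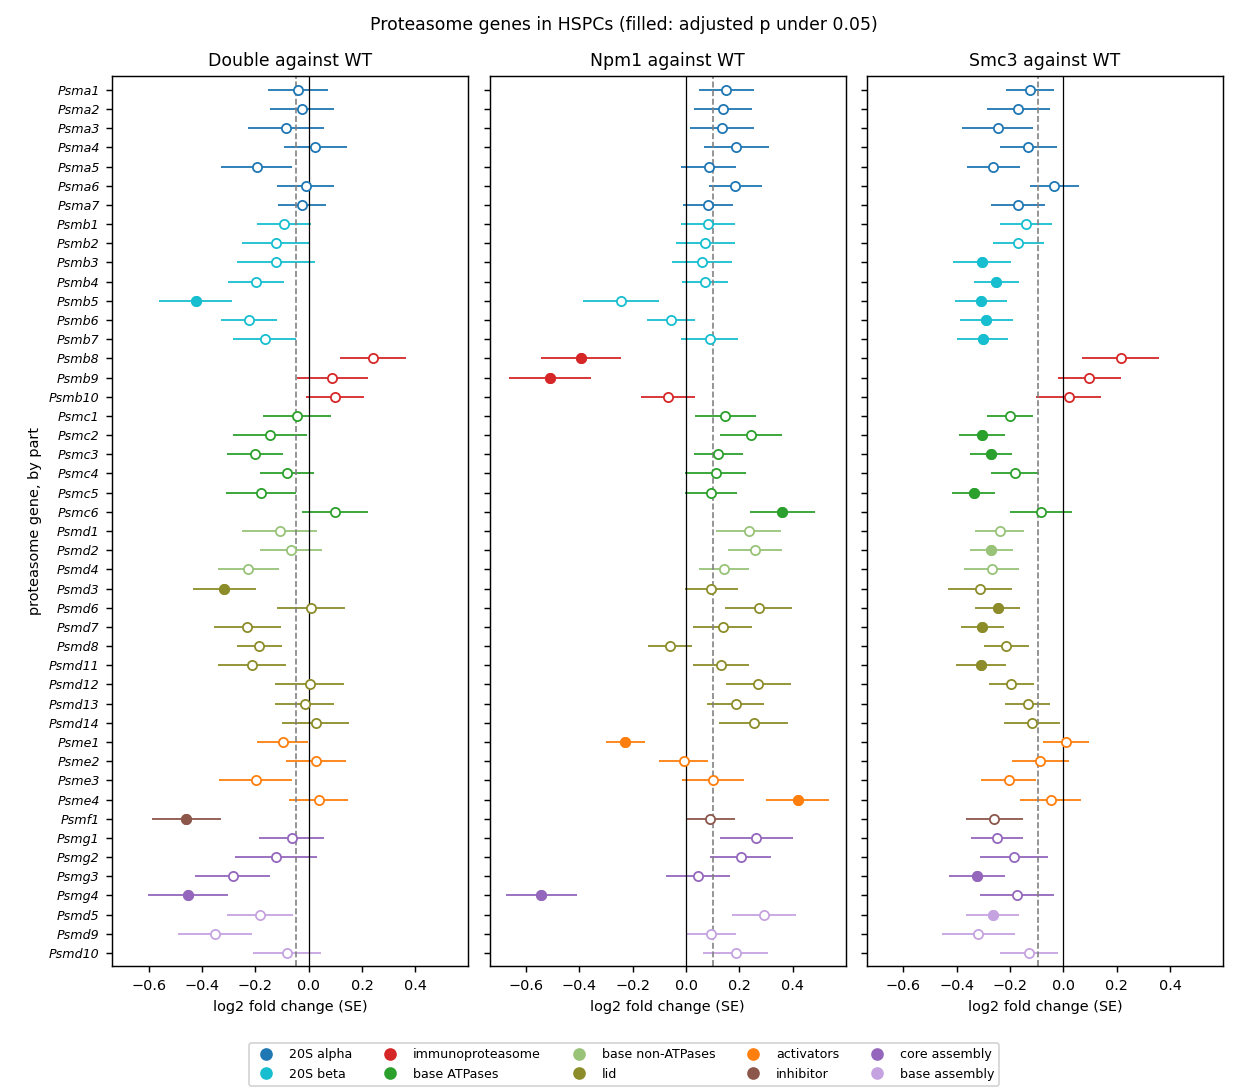
Log2 fold change against WT (x axis, with SE bars) of the 46 proteasome genes with a role (y axis, coloured by role) in Double, Npm1 and Smc3 HSPCs, from the authors' deposited tables. Filled points have an adjusted p under 0.05, and the dashed line is the median of genes with means from 1000 upwards (-0.049 in Double, 0.10 in Npm1 and -0.094 in Smc3). In the Smc3 panel all 31 standard subunits lie below 0 and the 3 immunoproteasome genes lie above it.

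The 31 standard subunits of core and cap lay on 1 side of 0 in Smc3 HSPCs, where 31 of 31 fold changes were negative with a median of -0.25 on the log2 scale. In Npm1 HSPCs 28 of 31 were positive with a median of 0.13, and in Double HSPCs 26 of 31 were negative with a median of -0.11. Abundant genes of all kinds were displaced in the same directions, with medians of -0.094 in Smc3, 0.10 in Npm1 and -0.049 in Double HSPCs for genes with a mean of at least 1000. The medians of all genes were -0.0025, 0.014 and 0.010 in those comparisons. Counted from the abundant genes, the median of the 49 members was displaced by -0.11 in Smc3, 0.00045 in Npm1 and -0.059 in Double HSPCs. The median SE of a single member's fold change was 0.099, 0.11 and 0.13. That SE does not measure the error of a median over members, which has none here. With the median of abundant genes set to 0, an alternative chosen after seeing the data, the number that fell in Smc3 HSPCs went down to 1 of 49, Psmc5. That members fell in Smc3 HSPCs therefore holds on the authors' scale, and for Psmc5 alone of the 14 on both scales.

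**Figure D2:**
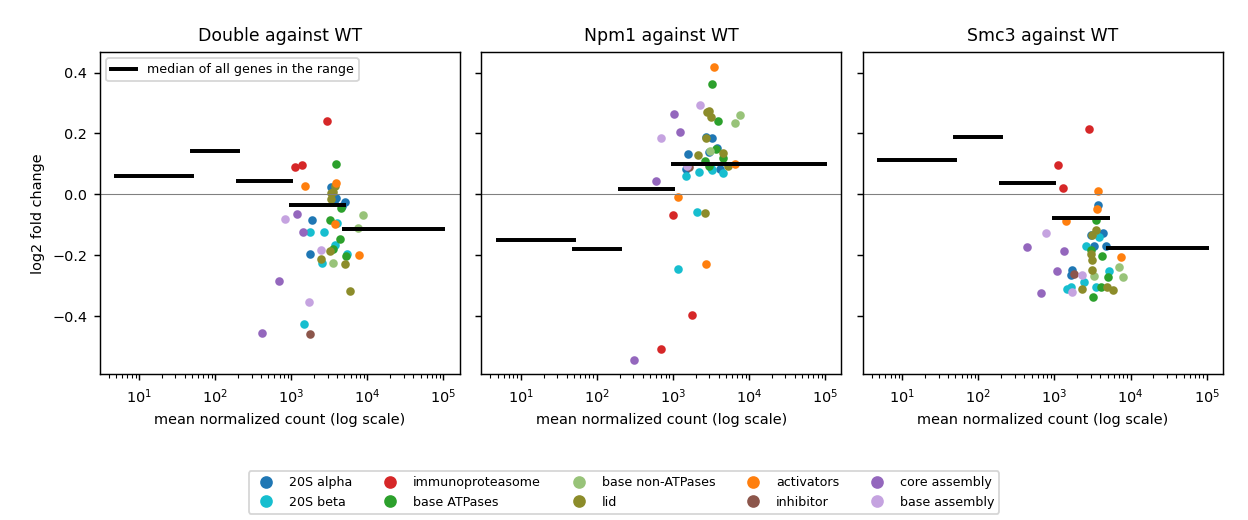
Log2 fold change against WT (y axis) of the 46 proteasome genes with a role (points, coloured by role) by mean normalized count (x axis, log scale), in Double, Npm1 and Smc3 HSPCs. Black bars give the median of all genes in each range of means, which in Smc3 HSPCs was 0.19 for means of 50 to 200 and -0.18 for means of 5000 and more. Most members lie at means of 1000 to 5000, where that median was -0.036 in Double, 0.10 in Npm1 and -0.076 in Smc3 HSPCs.

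The alpha subunits of the 20S core, which form its outer rings and gate, gave no call in any genotype. In Smc3 HSPCs the 7 alpha fold changes ran from -0.26 (Psma5, adjusted p = 0.0520, Wald test) to -0.034 (Psma6), in Npm1 HSPCs from 0.083 (Psma7) to 0.19 (Psma4), and in Double HSPCs from -0.19 (Psma5) to 0.024 (Psma4).

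The standard beta subunits, which form the inner rings, held 5 of the 14 members that fell in Smc3 HSPCs. Psmb7, the trypsin-like beta2 subunit, fell to a mean of 3128 normalized counts in Smc3 HSPCs, against 3858 in WT HSPCs, a log2 fold change of -0.30 ± 0.096 (SE) with an adjusted p of 0.0185 in the authors' deposited table. The 2 group means were computed from the authors' mean and fold change and have no error of their own. Psmb5, the chymotrypsin-like beta5 subunit, had a mean of 1307 in Smc3 HSPCs and 1620 in WT HSPCs, with a fold change of -0.31 ± 0.098 (adjusted p = 0.0181). Psmb6, the caspase-like beta1 subunit, had a mean of 2199 in Smc3 HSPCs and 2685 in WT HSPCs, with a fold change of -0.29 ± 0.099 (adjusted p = 0.0318). All 3 catalytic subunits of the standard core thus fell on the authors' scale in Smc3 HSPCs, with changes of -18.1% to -19.3%. With the trend of fold changes on transcript GC content removed, Psmb7 was still called, while Psmb5 was at -0.25 (adjusted p = 0.0701) and Psmb6 at -0.24 (adjusted p = 0.0876), without a call. The structural subunits Psmb3 and Psmb4 also fell there, with log2 fold changes of -0.30 and -0.25 (Psmb3 was not called with the GC trend removed, adjusted p = 0.0562), and Psmb1 was the least displaced at -0.14.

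Psmb5 also fell in Double HSPCs, with a mean of 1237 normalized counts in Double and 1659 in WT HSPCs. Its fold change of -0.42 ± 0.14 had an adjusted p of 0.0150 (Wald test) and was the most negative of the beta subunits there. It was at -0.31 with the GC trend removed and was not called (adjusted p = 0.109). Psmb1 was the least displaced beta subunit in Double HSPCs, at -0.094. In Npm1 HSPCs no beta subunit passed the threshold, and their fold changes ran from -0.24 (Psmb5) to 0.088 (Psmb7).

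The 3 immunoproteasome genes had fold changes of the opposite sign to the median of the standard subunits in each genotype. In Npm1 HSPCs Psmb9 (beta1i) fell to a mean of 580 normalized counts, against 825 in WT HSPCs, a log2 fold change of -0.51 ± 0.15 with an adjusted p of 0.0116 in the authors' deposited table. Psmb8 (beta5i) fell to 1533 in Npm1 HSPCs, against 2017 in WT HSPCs, a fold change of -0.40 ± 0.15 with an adjusted p of 0.0477. Psmb10 (beta2i) had a mean of 969 in Npm1 HSPCs and 1015 in WT HSPCs, a fold change of -0.067 ± 0.10 that did not pass the threshold. In Double and Smc3 HSPCs the 3 fold changes were all above 0 and none passed: Psmb8 was at 0.24 ± 0.12 in Double and 0.21 ± 0.14 in Smc3, Psmb9 at 0.089 ± 0.13 and 0.098 ± 0.12, and Psmb10 at 0.098 ± 0.11 and 0.020 ± 0.12. Fold changes in Npm1 HSPCs moved with transcript GC content, from a median of 0.18 for genes under 45% GC to -0.14 for genes of 55% GC and more, and Psmb8, Psmb9 and Psmb10 have 55.8%, 55.3% and 56.5% GC. With that trend removed and the same SE in a z test, Psmb9 was at -0.43 (adjusted p = 0.0508) and Psmb8 at -0.34 (adjusted p = 0.119), so neither call held. The same step put Psmb8 at 0.34 in Double HSPCs, where it was then called higher (adjusted p = 0.0475).

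Promoter windows are shown for the genes on which the contrast of inducible and standard subunits turns, the inducible pair Psmb8 and Psmb9 and their standard partners Psmb5 and Psmb6. Psmg4 and Psme1 are added as members that fell in Npm1 HSPCs and hold a match to the interferon-stimulated motif. That motif was also in the windows of Psmb3, Psmd4 and Psmd9, whose fold changes in Npm1 HSPCs were 0.059, 0.14 and 0.094 without a call. Each window runs 5′ to 3′ on the gene's strand from 250 bases before to 50 bases after the RefSeq start, on build GRCm38.p6 (plus strand for Psmb8, Psmb6, Psmg4 and Psme1, minus strand for Psmb9 and Psmb5). Capitals mark matches to the gamma-activated site TTCNNNGAA in Psmb8, the CCAAT box read on the other strand in Psmb9, the antioxidant response core (TGACNNNGC or TGAGNNNGC) in Psmb5, Psmb6 and, read on the other strand, Psmg4, and the interferon-stimulated response core (TTTC, any 2 bases, TTTC) in Psme1 and, read on the other strand, in Psmg4. The marked matches do not overlap each other. GC box matches in Psmb9, Psmb6, Psmg4 and Psme1 are not marked, and the one in Psmg4 overlaps its antioxidant match.
Psmb8 (chr17:34197945-34198244): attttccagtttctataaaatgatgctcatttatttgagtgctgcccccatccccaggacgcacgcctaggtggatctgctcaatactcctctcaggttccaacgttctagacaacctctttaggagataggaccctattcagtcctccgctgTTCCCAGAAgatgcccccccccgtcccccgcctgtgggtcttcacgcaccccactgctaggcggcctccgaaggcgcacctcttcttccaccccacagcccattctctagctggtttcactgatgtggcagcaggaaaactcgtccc
Psmb5 (chr14:54617946-54618245): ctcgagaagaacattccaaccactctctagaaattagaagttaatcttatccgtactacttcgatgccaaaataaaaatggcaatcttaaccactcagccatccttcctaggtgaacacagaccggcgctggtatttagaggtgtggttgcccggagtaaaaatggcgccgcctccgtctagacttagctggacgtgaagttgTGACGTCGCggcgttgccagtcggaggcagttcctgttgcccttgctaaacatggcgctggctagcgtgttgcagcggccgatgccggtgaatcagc
Psmb9 (chr17:34187281-34187580): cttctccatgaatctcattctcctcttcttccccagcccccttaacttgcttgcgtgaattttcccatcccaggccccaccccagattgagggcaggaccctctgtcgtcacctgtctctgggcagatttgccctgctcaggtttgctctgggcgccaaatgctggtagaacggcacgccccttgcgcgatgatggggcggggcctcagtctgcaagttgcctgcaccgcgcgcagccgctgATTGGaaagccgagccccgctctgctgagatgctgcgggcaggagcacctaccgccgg
Psmb6 (chr11:70525107-70525406): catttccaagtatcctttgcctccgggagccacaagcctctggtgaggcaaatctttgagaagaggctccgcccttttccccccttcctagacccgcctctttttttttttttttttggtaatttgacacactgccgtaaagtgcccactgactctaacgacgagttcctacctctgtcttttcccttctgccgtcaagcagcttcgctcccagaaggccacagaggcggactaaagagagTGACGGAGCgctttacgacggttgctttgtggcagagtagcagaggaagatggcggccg
Psmg4 (chr13:34162714-34163013): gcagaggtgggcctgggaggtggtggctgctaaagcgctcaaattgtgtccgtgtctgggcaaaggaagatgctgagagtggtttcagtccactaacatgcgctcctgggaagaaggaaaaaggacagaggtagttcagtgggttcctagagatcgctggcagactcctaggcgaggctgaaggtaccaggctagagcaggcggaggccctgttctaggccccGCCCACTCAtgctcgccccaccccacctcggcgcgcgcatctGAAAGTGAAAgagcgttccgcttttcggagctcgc
Psme1 (chr14:55578244-55578543): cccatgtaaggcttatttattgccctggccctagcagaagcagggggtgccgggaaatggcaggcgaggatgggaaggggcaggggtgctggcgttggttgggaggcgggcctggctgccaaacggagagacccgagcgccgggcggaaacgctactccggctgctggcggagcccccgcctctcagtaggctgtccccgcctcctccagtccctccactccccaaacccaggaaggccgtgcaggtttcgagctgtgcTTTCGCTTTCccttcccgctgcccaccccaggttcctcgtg
In the RefSeq order of chromosome 17 Psmb9 and Psmb8 alternate with Tap1 and Tap2, the peptide transporter genes, as H2-DMb1, Psmb9, Tap1, Psmb8 and Tap2.

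Windows of 42 members were found (45 windows, with several each for Psma6, Psmc2 and Psme2). The standard subunits Psmb1, Psmb2, Psmb7, Psmc3, Psmd3 and Psmd7 had none. The antioxidant response core, the element bound by the Nrf1 and Nrf2 factors, was in 13 of 27 windows of standard subunits (48.1%), both windows of Psma6 included. It was in 0 of 3 immunoproteasome windows, too few for a contrast, and in 27.8% of all 32851 windows of that length. The GC box GGGCGG was in 55.6% of the standard windows and 35.7% of all windows, and the CCAAT box in 37.0% and 37.4%. The interferon-stimulated response core was in 7.41% of the standard windows, 3 of 15 windows of other members, 0 of 3 immunoproteasome windows and 3.44% of all windows, and the gamma-activated site in 3.70% and 8.30%. The E-box CACGTG was in 3.70% and 7.15%, and the GGAA repeat (GGAA, any 2 bases, GGAA) in 3.70% and 3.47%. Both strands were searched and each motif was counted by itself. A match describes letters in the window and is not a site of binding.

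Within each catalytic pair, the inducible subunit was higher relative to its standard partner in Double and Smc3 HSPCs than in WT. Taking normalized counts per kb, Psmb8 made up 58.5% of the sum of Psmb8 and Psmb5 in Double HSPCs, against 47.1% in WT HSPCs of that table. The share was 56.1% in Smc3 HSPCs, against 47.0% in WT, and 44.0% in Npm1 HSPCs, against 46.6% in WT. Psmb9 made up 22.5% of its pair with Psmb6 in Double HSPCs (18.9% in WT), 14.3% in Npm1 HSPCs (18.6% in WT) and 23.4% in Smc3 HSPCs (18.9% in WT). Psmb10 made up 26.1% of its pair with Psmb7 in Double HSPCs (22.7% in WT), 20.8% in Npm1 HSPCs (22.6% in WT) and 26.9% in Smc3 HSPCs (22.8% in WT). The shares carry no error, and the matching difference of log2 fold changes, Psmb8 minus Psmb5, was 0.66 ± 0.18 (SE) in Double, -0.15 ± 0.21 in Npm1 and 0.52 ± 0.17 in Smc3 HSPCs. For Psmb9 minus Psmb6 it was 0.31 ± 0.17, -0.45 ± 0.18 and 0.39 ± 0.15, and for Psmb10 minus Psmb7 it was 0.26 ± 0.16, -0.16 ± 0.15 and 0.32 ± 0.16. No test was made within pairs, since both genes were measured in the same libraries and their covariance is unknown. A constant added to all fold changes of a table cancels in such a difference. A trend with GC content does not cancel where partners differ in it, as Psmb10 (56.5% GC) and Psmb7 (48.7%) do. In Npm1 HSPCs the median was -0.14 for genes of 55% GC and more and 0.087 for genes of 45% to 50%. Psmb8, Psmb5, Psmb9 and Psmb6 have 55.8%, 56.6%, 55.3% and 55.8% GC. Pair differences with the GC trend removed are not given.

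**Figure D3:**
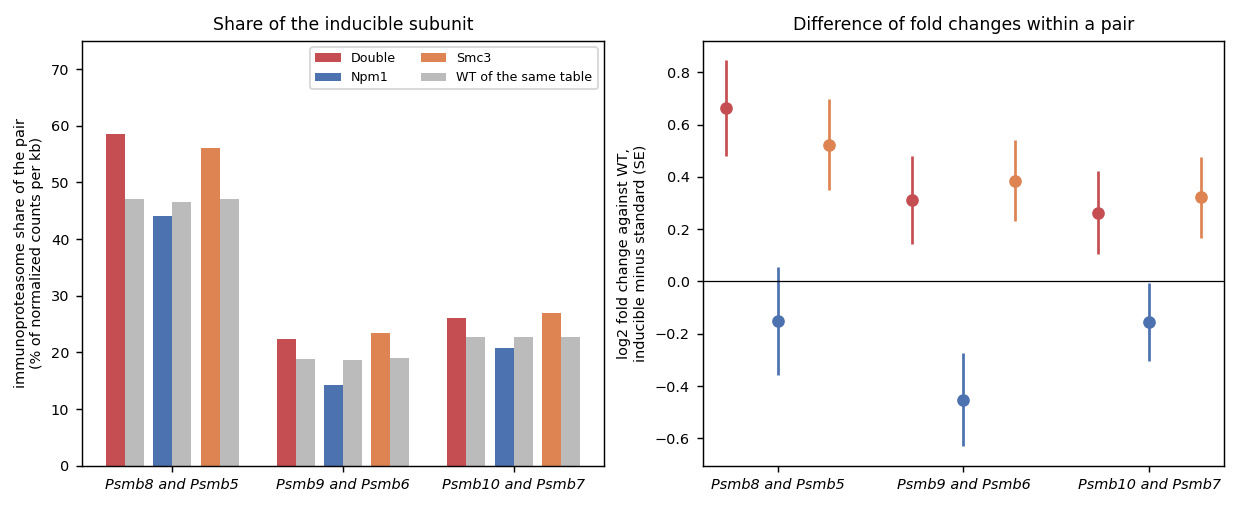
Left, the share (% of normalized counts per kb) of the inducible subunit in each catalytic pair, for each genotype and to its right the WT of the same table. Right, the difference of log2 fold changes against WT, inducible minus standard subunit, with SE bars. In Double and Smc3 HSPCs the 3 differences lie between 0.26 and 0.66, and in Npm1 HSPCs between -0.45 and -0.15.

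The base ATPases, which unfold substrates and thread them into the core, held 3 of the members that fell in Smc3 HSPCs. Psmc5 was the most negative member of all, with a mean of 2856 normalized counts in Smc3 HSPCs and 3606 in WT HSPCs. Its fold change was -0.34 ± 0.081 (SE), with an adjusted p of 0.00147 in the authors' deposited table, and with the abundant genes set to 0 it was the 1 member still called. Psmc2 fell by 0.30 (adjusted p = 0.00830) and Psmc3 by 0.27 (adjusted p = 0.00941), while Psmc6 was at -0.083. In Npm1 HSPCs Psmc6 was the 1 ATPase that rose, with a mean of 3681 in Npm1 and 2865 in WT HSPCs. That fold change was 0.36 ± 0.12 (adjusted p = 0.0258), and Psmc5 was the least displaced ATPase at 0.094. Psmc6 has 37.0% GC, the lowest of the 46 members, and was at 0.14 (adjusted p = 0.489) with the GC trend removed. In Double HSPCs no ATPase passed, and values ran from -0.20 (Psmc3) to 0.10 (Psmc6).

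Of the other base subunits, Psmd2, a large scaffold of the cap, fell in Smc3 HSPCs, with a mean of 7267 normalized counts in Smc3 and 8760 in WT HSPCs. The fold change was -0.27 ± 0.082 (adjusted p = 0.0131, Wald test). The row kept for Psmd2 is a non-coding RefSeq variant, and its coding row gave -0.27 as well. Psmd4, a ubiquitin receptor, was at -0.27 (adjusted p = 0.0541) and Psmd1, the other scaffold, at -0.24 (adjusted p = 0.0588). In Npm1 HSPCs Psmd2 was at 0.26 (adjusted p = 0.0543) and Psmd4 at 0.14. In Double HSPCs Psmd4 was at -0.23 and Psmd2 at -0.066, without a call.

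The lid, which carries the deubiquitinase Psmd14, held 3 members that fell in Smc3 HSPCs and 1 that fell in Double HSPCs. Psmd7, the partner of Psmd14, fell by 0.30 in Smc3 HSPCs (adjusted p = 0.00411), Psmd11 by 0.31 (adjusted p = 0.0128) and Psmd6 by 0.25 (adjusted p = 0.0318). Psmd3, a scaffold of the lid, was more negative than these at -0.31 ± 0.12, yet its adjusted p was 0.0559, and Psmd14 was at -0.12. In Double HSPCs Psmd3 fell to a mean of 5340 normalized counts, against 6650 in WT HSPCs, a fold change of -0.32 ± 0.12 with an adjusted p of 0.0416. Psmd3 has the highest GC content of the 46 members, 58.3%, and its call in Double HSPCs was lost with the GC trend removed (-0.19, adjusted p = 0.296). Psmd14 was the most positive lid gene in Double HSPCs, at 0.026. In Npm1 HSPCs the lid ran from -0.060 (Psmd8) to 0.27 (Psmd6) with no call.

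The activators, which can replace the 19S cap, moved apart from each other in Npm1 HSPCs. Psme1, the PA28 alpha subunit, had a mean of 2512 normalized counts in Npm1 HSPCs and 2941 in WT HSPCs, a fold change of -0.23 ± 0.074 (adjusted p = 0.0208). Its partner Psme2 was at -0.0080 ± 0.092. Psme4, the nuclear activator PA200, rose to a mean of 3927 in Npm1 HSPCs, against 2937 in WT HSPCs, a fold change of 0.42 ± 0.12 (adjusted p = 0.00648) and the most positive of any member there. Their transcripts differ in GC content, with 54.9% for Psme1 and 43.9% for Psme4, and with the GC trend removed Psme1 was at -0.15 (adjusted p = 0.193) and Psme4 at 0.27 (adjusted p = 0.126). In Smc3 HSPCs the activators ran from -0.21 (Psme3, PA28 gamma) to 0.011 (Psme1), and in Double HSPCs from -0.20 (Psme3) to 0.037 (Psme4), with no call.

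Psmf1 encodes PI31, known as an inhibitor of the 20S core in vitro. It fell in Double HSPCs to a mean of 1484 normalized counts, against 2039 in WT HSPCs. The fold change of -0.46 ± 0.13 had the lowest adjusted p of any member there, 0.00493 in the authors' deposited table, and it was still called with the GC trend removed. It was at -0.26 ± 0.11 in Smc3 HSPCs (adjusted p = 0.0787) and 0.090 ± 0.092 in Npm1 HSPCs. Fbxo7, which binds PI31, fell in Double HSPCs by 0.56 (adjusted p = 4.78e-06) and in Smc3 HSPCs by 0.33 (adjusted p = 0.0220), and was at -0.024 in Npm1 HSPCs.

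Among the assembly factors, Psmg4, a chaperone of the alpha ring, fell in 2 genotypes. It had a mean of 252 normalized counts in Npm1 HSPCs and 366 in WT HSPCs, a fold change of -0.54 ± 0.13 (adjusted p = 0.00142) that was the most negative of any member and was still called with the GC trend removed. In Double HSPCs its mean was 349, against 478 in WT HSPCs, a fold change of -0.45 ± 0.15 (adjusted p = 0.0200) that was not called with the trend removed (adjusted p = 0.0953). In Smc3 HSPCs it was at -0.17 and the least displaced of the core assembly genes. Psmg3, the partner of Psmg4, fell in Smc3 HSPCs by 0.32 (adjusted p = 0.0222, and 0.0664 with the GC trend removed), while Psmg1, which works with Psmg2, was at 0.26 in Npm1 HSPCs and -0.064 in Double HSPCs without a call. Of the base chaperones, Psmd5 fell in Smc3 HSPCs by 0.27 (adjusted p = 0.0484, and 0.0550 with the GC trend removed) and was at 0.29 in Npm1 HSPCs (adjusted p = 0.0669). Psmd9 was at -0.32 in Smc3, 0.094 in Npm1 and -0.35 in Double HSPCs, and Psmd10 at -0.13, 0.19 and -0.081, none of them called.

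The 4 genes listed apart gave no call. Psmb11, the thymus-specific beta subunit, had a mean of 0.971 normalized counts over the tables, and Psma8, the testis-type alpha subunit, had 91.5. Psme2b, a close copy of Psme2 with which reads may be shared, had 64.4 normalized counts, and its fold changes were 0.57 ± 0.24 in Double, -0.038 ± 0.23 in Npm1 and 0.49 ± 0.23 in Smc3 HSPCs. Psmc3ip, a meiotic recombination factor and no subunit, had 539.

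Differences between genotypes were tested as the difference of 2 log2 fold changes against the shared WT. Npm1 and Smc3 HSPCs differed in 19 of 49 members: 17 were higher and 2 were lower in Npm1 than in Smc3 HSPCs. Among all genes 11.7% were higher and 12.8% lower, and among genes with a mean of at least 1000 in both tables, 24.4% were higher and 5.72% lower. Of the 41 members with such means 17 were higher and 1 was lower. The members that were higher included 4 of 6 ATPases, 3 of 3 other base subunits, 5 of 8 lid subunits and 2 of 7 standard beta subunits, and 0 of 7 alpha subunits. Psmd5 had the largest difference, 0.56 ± 0.16 (adjusted p = 0.00401, z test with Benjamini-Hochberg adjustment), followed by Psmc2 with 0.55 ± 0.15 (adjusted p = 0.00266) and Psmd2 with 0.53 ± 0.13 (adjusted p = 0.00107). The 2 members that were lower in Npm1 than in Smc3 HSPCs were Psmb8, at -0.61 ± 0.21 (adjusted p = 0.0205), and Psmb9, at -0.61 ± 0.19 (adjusted p = 0.0133). With the median of abundant genes set to 0 none of the 17 was called, and Psmb8 and Psmb9 were.

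Double HSPCs were set against each single genotype in the same way. Double minus Npm1 gave 2 lower members, Psmf1 at -0.55 ± 0.16 (adjusted p = 0.0101) and Psmd5 at -0.48 ± 0.17 (adjusted p = 0.0482). It gave 2 higher members, Psmb8 at 0.64 ± 0.19 (adjusted p = 0.0156) and Psmb9 at 0.60 ± 0.20 (adjusted p = 0.0312). Among all genes 5.21% were lower and 7.34% higher, and among genes with a mean of at least 1000 in both tables, 10.7% were lower and 3.55% higher. The median of those abundant genes was -0.19, on the side of the 2 lower members. The calls of Psmf1 and Psmd5 with that median set to 0 are not given here. Double minus Smc3 gave 0 members, while 0.291% of all genes were lower and 0.126% higher after the same adjustment (z test). At an unadjusted p under 0.05 it gave 0 members as well. The sum of the Npm1 and Smc3 fold changes was set against the Double fold change, and 0 members and 0% of all genes differed after adjustment (z test). At an unadjusted p under 0.05 the 1 member was Psmb9, whose Double fold change exceeded that sum by 0.50 ± 0.23 (adjusted p = 1).

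**Figure D4:**
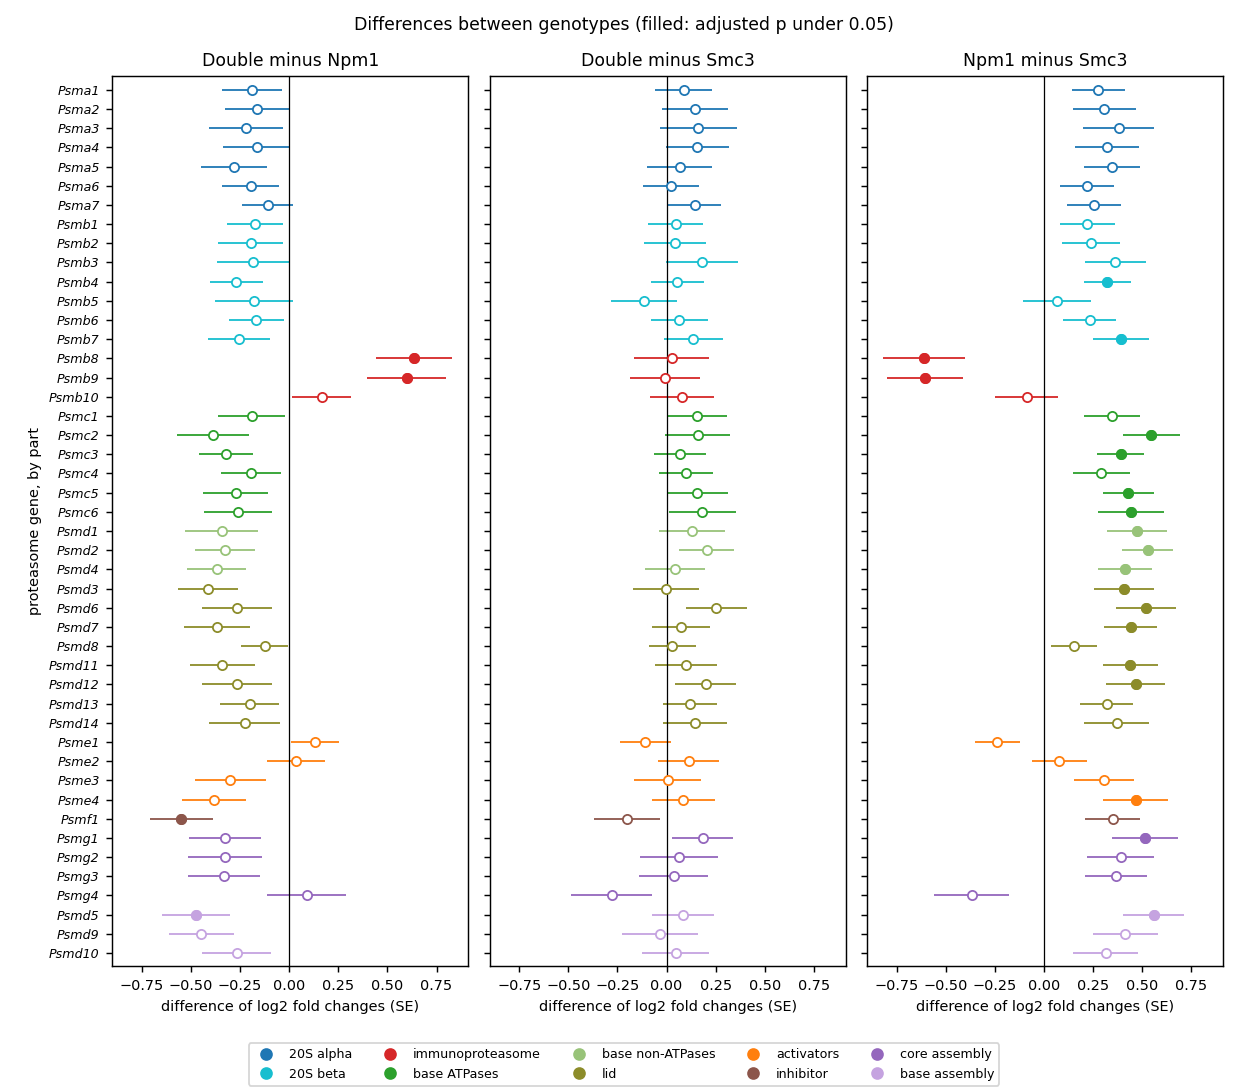
Difference of log2 fold changes (x axis, with SE bars that count the WT variance in both) of the 46 proteasome genes with a role (y axis) for Double minus Npm1, Double minus Smc3 and Npm1 minus Smc3. Filled points have an adjusted p under 0.05. Psmb8 and Psmb9 lie on the side opposite to the standard subunits in Double minus Npm1 (0.64 and 0.60) and in Npm1 minus Smc3 (both -0.61).

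Factors that bind the proteasome were counted next, in a list of 10 genes. In Smc3 HSPCs 3 fell (Txnl1, Fbxo7 and the ubiquitin receptor Adrm1, log2 fold changes of -0.33, -0.33 and -0.31) and 0 rose, and in Double HSPCs 2 fell (Fbxo7 and Txnl1, at -0.56 and -0.42). In Npm1 HSPCs 2 rose, the deubiquitinase Usp14 by 0.37 (adjusted p = 0.0345) and AI314180, the adaptor Ecpas, by 0.27 (adjusted p = 0.0239). Of 5 genes that control proteasome transcription, Ddi2, the protease that activates Nrf1, fell by 0.30 in Smc3 HSPCs (adjusted p = 0.0343) and rose by 0.23 in Npm1 HSPCs (adjusted p = 0.0131), and none was called in Double HSPCs. Nfe2l1, which encodes Nrf1, was at -0.0098 in Double, 0.032 in Npm1 and -0.028 in Smc3 HSPCs. Of 12 cytosolic or mitochondrial chaperones, 11 had an adjusted p in Smc3 HSPCs, and 5 of these fell, among them Hspd1 and Hspe1 (-0.45 and -0.43), while Hspa8 rose by 0.36 in Npm1 HSPCs and 0 were called in Double HSPCs. Beside these counts, 6.6% of all genes fell in Smc3, 9.82% fell in Double and 9.1% rose in Npm1 HSPCs. Among genes with a mean of at least 1000, these shares were 11.9%, 14.1% and 14.9%. Median fold changes over the binding factors were -0.073 in Double, 0.14 in Npm1 and -0.13 in Smc3 HSPCs, near the abundant genes named above.

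Peptide loading genes act after the immunoproteasome, and 10 were measured. In Npm1 HSPCs 2 fell, the class I light chain B2m by 0.39 (adjusted p = 0.0303) and the chaperone Tapbp by 0.33 (adjusted p = 0.0170), and the list's median was -0.22. Tap1, the neighbour of Psmb9 and Psmb8, was at -0.31 ± 0.15 in Npm1 HSPCs without a call. In Double HSPCs Calr rose by 0.25 (adjusted p = 0.0174), and in Smc3 HSPCs 0 were called. Of 13 interferon response genes with an adjusted p, 8 fell in Npm1 HSPCs (Isg15, Oas2, Zbp1 and Rsad2 with the smallest p, at -1.49, -1.34, -1.01 and -0.81), with a median of -0.61. In Double HSPCs 4 fell (Rsad2, Isg15, Irf7 and Ifit1, at -1.91, -1.77, -1.33 and -0.86) and Ifi47 rose by 0.43, with a median of -0.22. In Smc3 HSPCs Rsad2, Isg15 and Irf7 fell (-1.20, -0.99 and -0.55) and Ifi47 and Gbp2 rose (0.49 and 0.47), with a median of -0.12. Of all genes, 9% fell in Npm1, 9.82% fell and 8.87% rose in Double, and 6.6% fell and 7.94% rose in Smc3 HSPCs. All mice had received pIpC, and the part of interferon in the Psmb8 and Psmb9 values was not tested.

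Cell type markers moved with genotype as well. All 8 erythroid markers fell in Double HSPCs, where their means summed to 28122 normalized counts, against 49245 in WT HSPCs. In Smc3 HSPCs 6 of 8 fell (32448 against 47999 in WT), and in Npm1 HSPCs 3 of 8 fell (36614 against 38782 in WT). Of 4 myeloid granule genes 4 rose in Double HSPCs (149859 against 100273 in WT) and 3 rose in Smc3 HSPCs (160674 against 100404 in WT), while 0 were called in Npm1 HSPCs (48759 against 67305 in WT). Of 9 S phase genes 7 fell in Double HSPCs (81812 against 101302 in WT) and 8 fell in Smc3 HSPCs (81143 against 98512 in WT), and Mcm4 rose in Npm1 HSPCs (80197 against 78232 in WT). Of 4 mast cell and basophil genes 4 rose in Smc3 HSPCs (9264 against 4377 in WT), 2 rose in Double HSPCs (5970 against 3934 in WT) and 4 fell in Npm1 HSPCs (1882 against 2820 in WT). Of 7 stem and progenitor genes Cd34 and Flt3 rose in both Double and Smc3 HSPCs, with Meis1 in Double and Gata2 in Smc3 HSPCs, and Cd34 fell in Npm1 HSPCs (34664 in Double, 22633 in Npm1 and 36786 in Smc3, against 32006, 24334 and 31207 in WT). B cell, T and NK cell and macrophage lists summed to at most 734 normalized counts in any group, with 1 B cell marker lower, 1 T and NK cell marker higher and 1 macrophage marker lower in Double, 2 T and NK cell markers higher in Smc3 and 0 called in Npm1 HSPCs. Of all genes, 9.82% fell and 8.87% rose in Double and 6.6% fell and 7.94% rose in Smc3 HSPCs. In Npm1 HSPCs these shares were 9% and 9.1%. In bulk RNA a different number of cells of a type and a different level per cell cannot be told apart, and the part of these markers in the proteasome values was not tested.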

How the data were processed

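Poly(A) RNA of 12 HSPC libraries was sequenced, per the labels' protocols, with a NEBNext Ultra II kit that keeps no record of strand, so overlapping genes can share reads. Reads were aligned with STAR to mm9 and compared with DESeq2, per the submitters' processing notes. For both, the version was not given in the sources used here. Each of 3 tables deposited by the authors holds 33018 transcripts. Per the file headers, each holds the mean of normalized counts (the signal of a transcript, counts divided by library size factors by the authors), a log2 fold change and its standard error from DESeq2, the Wald score and the authors' p-value, also adjusted over transcripts. The fold changes are moderated, so large changes of sparse transcripts are understated. Of the 33018, 1 row per symbol was kept (24016 genes), and 25 symbols turned into dates (53 rows) were matched by accession.

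The threshold for a call was an adjusted p under 0.05. Group means were computed from the deposited mean and fold change, taking 3 libraries on each side. Differences between genotypes were tested with a normal z test on the difference of log2 fold changes, with the summed squared standard errors as variance and Benjamini-Hochberg adjustment over all genes. Because the WT libraries enter both fold changes, that variance is too large and the test cautious. The code of the test was checked on simulated data. The size factors behind the depth estimates came from transcripts with a mean under 0.6 normalized counts, whose values are whole reads over a size factor (100% of them). Intervals of counts are not given since no library values were used. GC content and length came from GENCODE M21 transcripts on GRCm38, matched by RefSeq accession, for 100% of members. Promoter windows came from RefSeq on GRCm38.p6 and no coordinates were converted. Named genes are the members called in any comparison, the 3 immunoproteasome genes and their partners, the extremes of each role, and up to 4 genes with the smallest p of each list. Members and lists were chosen with earlier results of these data known. The counts of 1 further gene list are not reported here. Alternatives were the centre of fold changes, the genes adjusted over, a low mean filter of 50, another row per symbol, removal of a GC trend and of the WT variance. Python 3.11.15 with pandas 2.3.3, numpy 2.4.6, scipy 1.17.1 and matplotlib 3.10.9 was used.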

Additional observations from a re-analysis of the deposited data

Results flagged for a closer look

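Members whose fold changes against WT differed between genotypes by the z test of the difference (adjusted p under 0.05) are collected here. In Double minus Npm1, Psmb8 differed by 0.64 and Psmb9 by 0.60 (higher in Double HSPCs), and Psmf1 by -0.55 and Psmd5 by -0.48 (lower in Double HSPCs). In Npm1 minus Smc3, Psmb8 and Psmb9 differed by -0.61 each (lower in Npm1 HSPCs). The other members of that contrast were higher in Npm1 than in Smc3 HSPCs. Among beta subunits these were Psmb4 (0.32) and Psmb7 (0.39), and among ATPases Psmc2 (0.55), Psmc3 (0.39), Psmc5 (0.43) and Psmc6 (0.44). Among other base subunits these were Psmd1 (0.47), Psmd2 (0.53) and Psmd4 (0.41), and among lid subunits Psmd3 (0.41), Psmd6 (0.52), Psmd7 (0.44), Psmd11 (0.44) and Psmd12 (0.47). The activator Psme4 (0.47) and the assembly factors Psmg1 (0.51) and Psmd5 (0.56) complete them. The median of genes with means from 1000 upwards in both tables was 0.22 in Npm1 minus Smc3 and -0.19 in Double minus Npm1, and its part in these differences was not tested beyond the alternative given below. Called members under that alternative are named for Npm1 minus Smc3 and not for Double minus Npm1.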

How the results depend on the processing

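No paired analysis was possible because the tables hold no values per library, and for the same reason no library could be left out. With the median of genes of mean 1000 or more set to 0 (chosen after seeing the data), called members numbered 1 in Smc3 (Psmc5, 14 on the authors' scale) and 4 in Npm1 minus Smc3 (Psmb8, Psmb9, Psme1 and Psmg4, all lower, against 19). With the GC trend removed they numbered 1 in Npm1 (Psmg4, against 6) and 2 in Double (Psmf1 lower and Psmb8 higher, against 4). In Smc3 10 were called (against 14): 9 of the 14, without Psmb3, Psmb5, Psmb6, Psmg3 and Psmd5, and Psmd8. Over all genes the GC step took the share of higher among called genes in Npm1 to 34.2%, against 50.3%. With the shared WT variance removed, called members numbered 19 in Double minus Npm1 (against 4) and 42 in Npm1 minus Smc3 (against 19). A smaller variance raises the number of calls among genes of any kind. The shares of all genes called under these alternatives are not given, so the member counts here have no background. Other counts and medians stayed within 1.5 times or 1 standard error. Of the 24 called member values, 13 lost the call under GC removal, 15 with abundant genes set to 0, 4 when adjusted over 1 row per gene and 1 with the median of all genes set to 0, and none changed direction. With 3 libraries a group and a median SE of 0.099 to 0.13, the smallest fold change called was -0.23 (Psme1 in Npm1 HSPCs). Larger ones were not called, such as -0.25 (Psma3 in Smc3 HSPCs), and -0.35 (Psmd9) and 0.57 (Psme2b) in Double HSPCs.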
